A study of Homo sapiens with 18 samples.

Results

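Most of the genes described here build, cut or bind the extracellular matrix of HepG2, a human cell line established from a hepatocellular carcinoma. Of 43 genes chosen by symbol (structural matrix proteins, crosslinking and remodelling enzymes with their inhibitors, and matrix receptors), 41 had a feature on the array that names that gene and no other. A feature is 1 probe set of the array, and for a gene with several the brightest over the 18 arrays was used. SDC4 had only a feature shared with ROS1, and LAMA3 had none with its name, so neither was analysed here. These 41 stand among 20546 features with a gene symbol, in a table of 32321. The 43 genes were chosen with earlier results of these data known.

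Per the labels, HepG2 clones carrying a plasmid for thyroid hormone receptor TRα1 (6 clones), TRβ1 (12 clones) or an empty plasmid (11 clones, called control here) were obtained under G418 co-selection, scored by PCR and combined into 1 pool per construct. Each pool was given 100 nM T3, the active thyroid hormone, or its ethanol vehicle and harvested after 6 h, in medium holding 10% serum stripped of hormones. The 6 groups had 3 arrays each, numbered 1 to 3, and 200 ng of total RNA was labelled per array. With 1 pool per construct, an effect of the receptor and the make-up of the clones cannot be told apart. Values are log2 expression, so a difference of 1 is a factor of 2, and all p-values measure the spread between these arrays only.

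The extracellular matrix is the protein and sugar mesh around cells. Laminins, collagen IV, nidogens and perlecan form the basement membrane under epithelia, and fibronectin, fibrillar collagens, proteoglycans and hyaluronan fill the space between cells. Metalloproteinases cut it, TIMP proteins inhibit them, and integrins, CD44 and syndecans hold cells to it. In liver most fibrillar matrix is made by stellate cells and fibroblasts, while hepatocytes are known for secreting fibronectin. Thyroid hormone receptors bind DNA with or without T3 and change transcription of target genes.

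The libraries carried the marks of their label. Of 12 measured hepatocyte markers, 11 lay above the median feature, with list means of 10.87 to 11.07 across the arrays. Of 10 fibroblast markers, 2 did (ACTA2 and COL1A1), with list means of 4.81 to 5.14 in every group, and 0 of 8 endothelial markers did. In bulk RNA, fewer cells of a type and less RNA per cell cannot be told apart. THRA, the gene of the introduced TRα1, was higher in the TRα1 pool than in control by 0.69 ± 0.10 (SE, 6 against 6 arrays, adjusted p = 0.0014). On vehicle alone this THRA difference was 0.44 and did not pass (adjusted p = 0.53, with the block of replicate numbers 0.13). THRA changed on T3 by 0.46 in TRα1, -0.06 in TRβ1 and -0.05 in control, and none of these passed in either fit. THRB was higher in the TRβ1 pool by 0.33, which did not pass (adjusted p = 0.40, and 0.037 with the replicate number as a block). On T3 against vehicle, THRB rose by 0.45 averaged over pools (adjusted p = 0.024), and its value in control alone, which did not pass, was 0.43. Whether the probes of either feature lie in the introduced sequence was not tested, so these differences may not measure the plasmid transcripts in full. Arrays with the same number deviated together, so the value with that block is given beside a result wherever it changes the call.

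Few of these genes passed the test between pools. VCAN, ENPP2 and SPARC did, and all 3 were higher in both receptor pools than in control, with the highest levels in the TRα1 pool. Over vehicle and T3 together, 4 of 41 genes (9.76%) passed in TRα1 against control, all higher, against 1.38% of all features tested (1.04% higher). In TRβ1 against control 3 of 41 passed (7.32%), all higher, against 0.38% of all features (0.277% higher). With the block the counts were 10 (7 higher, 3 lower) and 6 (4 higher, 2 lower). All features then gave 7.54% (4.43% higher and 3.11% lower) and 3.61% (1.91% higher and 1.7% lower). The median difference of the 41 was 0.03 in both comparisons, against 0.00 for all features. Both comparisons use the same control arrays. Since the genes were chosen with earlier results of these data known, no share of them, here or below, can be read as enrichment.

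VCAN encodes versican, a large proteoglycan that binds hyaluronan. The control arrays read 5.28, 5.16 and 5.17 on vehicle and 4.75, 5.27 and 5.34 on T3. The TRβ1 arrays read 6.80, 7.44 and 6.87 on vehicle and 6.38, 7.06 and 6.57 on T3. The TRα1 arrays read 7.54, 7.70 and 7.77 on vehicle and 7.08, 7.85 and 7.66 on T3. All receptor arrays lay above all control arrays, while the ranges of both receptor pools overlapped. The difference from control was 2.44 ± 0.16 in TRα1 (SE, 5.42-fold, adjusted p = 1.7e-07) and 1.69 ± 0.16 in TRβ1 (3.23-fold, adjusted p = 3.2e-05). The TRβ1 minus TRα1 difference of -0.75 passed only with the block (adjusted p = 0.064, with the block 0.0014). On vehicle alone, VCAN was higher by 2.47 in TRα1 (adjusted p = 2.5e-05) and by 1.83 in TRβ1 (adjusted p = 0.0013). The TRβ1 call on vehicle was lost when only the compared arrays were fitted.

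ENPP2 encodes autotaxin, a secreted enzyme that makes the signalling lipid lysophosphatidic acid. Control read 6.08, 6.11 and 6.35 on vehicle and 6.16, 6.21 and 6.78 on T3. TRβ1 read 7.11, 7.01 and 7.35 on vehicle and 7.61, 7.57 and 7.64 on T3. TRα1 read 8.04, 7.87 and 8.14 on vehicle and 8.67, 8.63 and 8.83 on T3. The 3 pools formed separate bands with no overlap, control lowest and TRα1 highest. TRα1 exceeded control by 2.08 ± 0.11 (4.24-fold, adjusted p = 3.4e-08) and TRβ1 exceeded it by 1.10 ± 0.11 (2.15-fold, adjusted p = 4.2e-05). ENPP2 was the 1 gene of the 41 that passed between the receptor pools (TRβ1 minus TRα1 -0.98 ± 0.11, adjusted p = 0.00037), against 0.35% of all features. With the block 4 of 41 passed, all lower in TRβ1 (ENPP2, VCAN, TIMP3 and LOX), against 2.2%. TIMP3 differed by -0.46 (with the block adjusted p = 0.0011), and the LOX call held without 1 array in 13 of 18 cases.

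SPARC encodes osteonectin, a matricellular protein that binds collagen. Control read 7.53, 6.69 and 6.96 on vehicle and 7.36, 6.59 and 6.94 on T3. TRβ1 read 8.11, 7.72 and 7.98 on vehicle and 8.03, 7.60 and 7.91 on T3. TRα1 read 8.26, 8.03 and 8.64 on vehicle and 7.94, 8.00 and 8.52 on T3. No control array reached the lowest receptor array, although the gap to the TRβ1 pool was small, from 7.53 to 7.60. SPARC was higher by 1.22 ± 0.17 in TRα1 (2.32-fold, adjusted p = 0.00088) and by 0.88 ± 0.17 in TRβ1 (1.84-fold, adjusted p = 0.029). The TRβ1 call was lost without any 1 of 8 single arrays, the TRβ1 arrays numbered 1 and 3 and the control arrays numbered 2 and 3 on either treatment (adjusted p up to 0.098), and with the block it held without any 1 array.

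**Figure D1:**
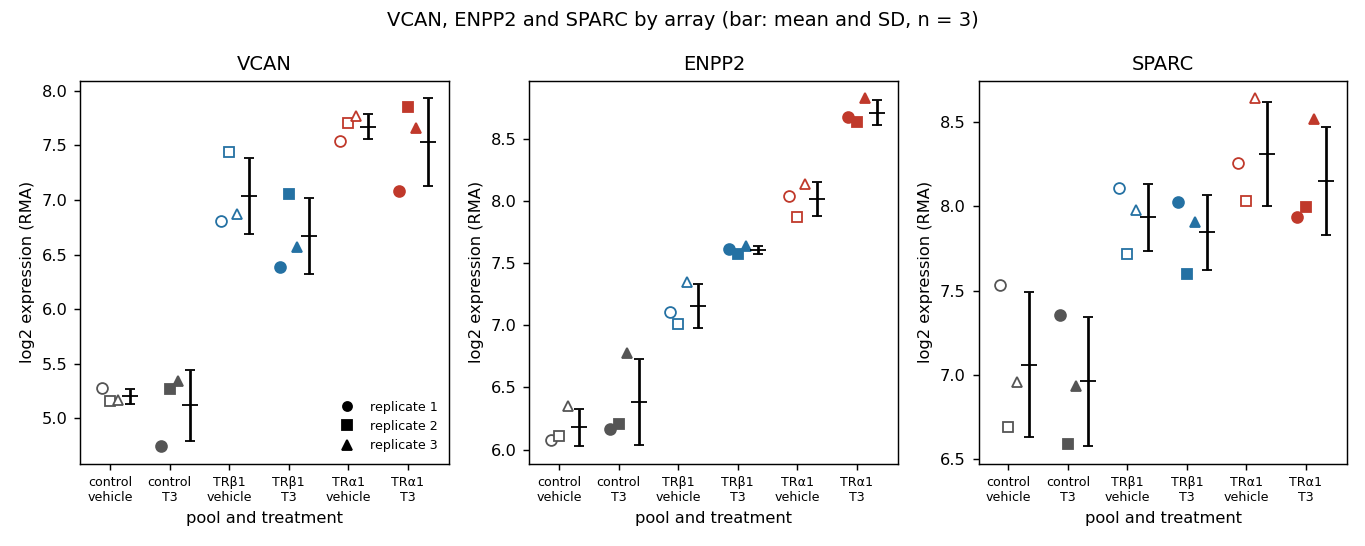
Log2 expression of VCAN, ENPP2 and SPARC in each of 18 arrays, by pool and treatment, with open symbols for vehicle, filled symbols for T3 and bars for the mean and SD of 3 arrays. Control is lowest for all 3 genes, and ENPP2 shows separate bands for the 3 pools, from 6.08 to 6.78 in control and from 7.87 to 8.83 in TRα1.

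Ranges of the 2 pools compared did not overlap for 4 of 41 genes in TRα1 against control (VCAN, ENPP2, SPARC and MMP14, 1.77% of all features). They did not overlap for 3 in TRβ1 against control (1.06%) and for ENPP2 between the receptor pools (0.759%). On vehicle alone 3 of 41 genes passed in TRα1 against control (7 with the block), against 0.307% of all features and 2.07% with the block. In TRβ1 against control 2 passed (VCAN and ENPP2), or 3 with the block, against 0.117% and 0.735%. SPARC on vehicle was higher by 1.25 in TRα1 (adjusted p = 0.036) and by 0.87 in TRβ1 (adjusted p = 0.51, with the block 0.026). The first of these calls was lost without any 1 of 8 arrays (adjusted p up to 0.25). These were the 3 TRα1 vehicle arrays, the control vehicle arrays numbered 2 and 3, and the arrays numbered 3 of control on T3 and of TRβ1 on either treatment. With the block it held in all 18 cases. The TRβ1 call with the block was lost without any 1 of 5 arrays, the 3 TRβ1 vehicle arrays and the control vehicle arrays numbered 2 and 3 (adjusted p up to 0.14). The ENPP2 call in TRβ1 on vehicle was lost without any 1 of 4 arrays, numbered 1 and 3 in TRβ1 and 1 and 2 in control on vehicle (adjusted p up to 0.097), and held with the block. Between the receptor pools on vehicle, limma called 0 of 41 (3 at an unadjusted p under 0.05) and 0 of all features, of which 2.89% had such a p. With the block it called ENPP2, against 0.54% of all features. With 3 arrays against 3, ranges did not overlap for 9, 4 and 6 genes in these 3 comparisons, against 7.67%, 6.59% and 5.47% of all features.

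Single markers of liver cell types moved with the same pools. Of 6 biliary markers, PROM1 passed as lower, by -1.98 in TRα1 (log2 difference, adjusted p = 1.0e-07) and -1.24 in TRβ1 (adjusted p = 4.7e-05). KRT19 was lower with the block only (-0.46 and -0.57). The other 4 (KRT7, SOX9, EPCAM and CFTR) differed by -0.04 to 0.08, and the median of the 6 was -0.02 in TRα1 and 0.01 in TRβ1. The mean of the 6, 7.46 to 7.55 in the control arrays, 7.10 to 7.43 in TRβ1 and 6.93 to 7.25 in TRα1, includes PROM1 and KRT19. Of 12 hepatocyte markers, TTR (-0.70, adjusted p = 0.0021) and AFP (-0.31, adjusted p = 0.015) passed as lower in TRα1, while 7 of 12 had a difference above 0 and their median was 0.13. With the block only, ALB passed as lower there (-0.21, adjusted p = 0.012) and APOA1 as higher (0.32, adjusted p = 0.015). In TRβ1 none of the 12 passed in either fit. Of 10 fibroblast markers, ACTA2 was higher (0.24) and PDGFRB lower (-0.26) in TRα1 with the block only, and their median was -0.01. In TRβ1, again with the block only, CDH2 of 7 mesenchymal transition markers (-0.29) and CD68 of 8 leukocyte markers (-0.25) were lower. The medians of these lists there were 0.02 and -0.02. Their part in the differences of VCAN, ENPP2 and SPARC was not tested.

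VCAN and SPARC, both of which were higher in each receptor pool, are shown by the 250 bases before their RefSeq start (GRCh38.p14), since the receptors act at DNA. The windows are chr5:83471494-83471743 on the plus strand for VCAN and chr5:151686916-151687165 on the minus strand for SPARC, both 5′ to 3′ on the gene's strand. Capitals mark matches to any of 5 motifs searched on both strands.
VCAN: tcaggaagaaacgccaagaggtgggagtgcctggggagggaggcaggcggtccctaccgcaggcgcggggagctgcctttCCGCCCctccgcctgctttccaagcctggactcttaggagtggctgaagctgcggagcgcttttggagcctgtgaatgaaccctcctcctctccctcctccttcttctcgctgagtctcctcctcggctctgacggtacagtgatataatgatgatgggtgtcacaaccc
SPARC: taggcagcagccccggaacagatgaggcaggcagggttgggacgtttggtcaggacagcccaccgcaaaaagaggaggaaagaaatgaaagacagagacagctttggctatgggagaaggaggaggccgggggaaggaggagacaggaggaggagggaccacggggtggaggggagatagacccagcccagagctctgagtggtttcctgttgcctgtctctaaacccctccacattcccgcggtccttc
VCAN held 1 match, to the GC box GGGCGG on the opposite strand, and SPARC held 0. The other motifs were AGGTCA (the core that nuclear receptors bind), the spaced direct repeat of AGGTCA that thyroid hormone receptor dimers bind (DR4), TGAGTCA (the AP-1 site) and TATAAA (the TATA box). A window was found for 30 of the 41 genes, 40 windows in all. ENPP2, also higher in each receptor pool, had none and was not searched. AGGTCA stood in the windows of CD44 and ITGAV, and in 12.1% of all 35116 windows. DR4 stood in 0 of the 40 windows and in 0.0142% of all. TGAGTCA stood in LAMB3 and MMP7 (4.2% of all), and GGGCGG in windows of 27 genes (42.6% of all windows, and 32 of the 40 here). A match is only a run of letters in this window.

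Among 12 basement membrane genes no call was made in either receptor pool without the block. The median difference of the 12 was 0.06 in TRα1 and 0.02 in TRβ1. COL18A1, whose collagen XVIII releases endostatin, was higher in TRα1 by 0.45 with the block only (adjusted p = 0.11, with the block 0.00065). LAMC1, the laminin γ1 chain shared by most laminins, was higher by 0.33, again with the block only (adjusted p = 0.0058). In TRβ1, COL18A1 (0.26, adjusted p = 0.048) and HSPG2, which encodes perlecan (-0.25, adjusted p = 0.025), passed with the block only. The collagen IV chains COL4A1 and COL4A2 differed from control by 0.01 each in TRα1 and by -0.10 and -0.05 in TRβ1. The laminin chains LAMA1, LAMA5, LAMB1 and LAMB3 differed by -0.01 to 0.14, the linkers NID1 and NID2 by -0.08 to 0.24, and AGRN by -0.05 and -0.15, and none of these passed in either fit. NID2 (mean 4.00 over 18 arrays), LAMA1 (4.06), COL4A1 (4.66) and LAMB3 (4.70) were dim, against a median feature of 6.13.

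Of 10 interstitial and matricellular genes, VCAN and SPARC passed and 8 did not. FN1, which encodes fibronectin, read 12.08 to 12.65 across all 18 arrays. In TRα1 it differed from control by -0.06 (95% interval -0.35 to 0.24, with the block -0.15 to 0.04), an interval that leaves out a change as large as that of SPARC. The collagens COL5A1 and COL12A1, the matricellular proteins THBS1 and TNC, the small proteoglycans LUM and BGN and the hyaluronan synthase HAS2 differed from control by -0.17 to 0.12 in the 2 receptor pools.

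Of 3 crosslinking genes, LOX, lysyl oxidase, was higher in TRα1 by 0.23 with the block only (adjusted p = 0.027). TGM2 and LOXL2 differed by 0.10 and -0.03 in TRα1 and by 0.18 and 0.14 in TRβ1, and did not pass.

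Among 9 genes listed under remodelling, ENPP2 and TIMP3 passed in TRα1 against control. ENPP2 was listed there although its product makes a signalling lipid. TIMP3 encodes a metalloproteinase inhibitor that stays bound to the matrix. Control read 8.88, 9.11 and 8.97 on vehicle and 9.05, 9.31 and 9.34 on T3. TRβ1 read 8.91, 9.19 and 8.94 on vehicle and 9.22, 9.54 and 9.38 on T3. TRα1 read 9.16, 9.72 and 9.28 on vehicle and 9.73, 10.29 and 9.78 on T3. The pools overlapped, and the TRα1 arrays on T3 were above all others of the 18. The pool difference was 0.55 ± 0.12 in TRα1 (1.46-fold, adjusted p = 0.029, with the block 9.6e-05) and 0.09 in TRβ1 (95% interval -0.16 to 0.34). A second feature of TIMP3 gave 0.86 in TRα1 (adjusted p = 0.014). The call on the first was lost without any 1 of 8 single arrays, the 6 control arrays and the TRα1 arrays numbered 2 (adjusted p up to 0.079), and with the block it held without any 1 array. On vehicle alone the TRα1 difference of 0.40 passed only with the block (adjusted p = 0.93, with the block 0.041), and then held without 1 array in 4 of 18 cases.

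MMP14, the membrane-bound metalloproteinase that activates MMP2, was lower in TRα1. It read 5.33, 5.50 and 5.42 on vehicle and 5.41, 5.58 and 5.60 on T3 in TRα1, against 5.67, 6.20 and 5.95 and 5.81, 5.94 and 5.86 in control. The ranges did not overlap, and the difference of -0.43 passed with the block only (adjusted p = 0.099, with the block 0.0011). CEMIP, which binds and degrades hyaluronan, differed by -0.37 in TRα1, also with the block only (adjusted p = 0.31, with the block 0.0035). Its means in TRα1 and control were 7.47 and 7.64 on vehicle but 6.73 and 7.30 on T3, so these pools lay closer on vehicle. TIMP1 (0.30), TIMP2 (0.00), MMP2 (0.20), MMP7 (0.26) and ADAMTS1 (-0.24) did not pass in either fit. MMP7 and ADAMTS1 were dim, with means of 2.95 and 3.61 over 18 arrays.

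Of 7 receptors, ITGAV alone passed, and with the block only. ITGAV encodes the integrin αV chain, which binds fibronectin and vitronectin. Control read 9.02, 9.89 and 9.76 on vehicle and 8.98, 9.99 and 9.72 on T3. TRβ1 read 8.72, 9.61 and 9.18 on vehicle and 8.53, 9.41 and 9.16 on T3, and TRα1 read 8.84, 9.48 and 9.18 on vehicle and 8.62, 9.34 and 9.14 on T3. In every pool the array numbered 1 was lowest, and within each number the receptor pools were below control. The difference was -0.46 in both pools (with the block adjusted p = 0.00024 in TRα1 and 0.00058 in TRβ1, without it 0.63 in TRα1). The integrin chains ITGB1, ITGA5, ITGA6 and ITGB4, the hyaluronan receptor CD44 and the syndecan SDC1 differed by -0.06 to 0.17.

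**Figure D2:**
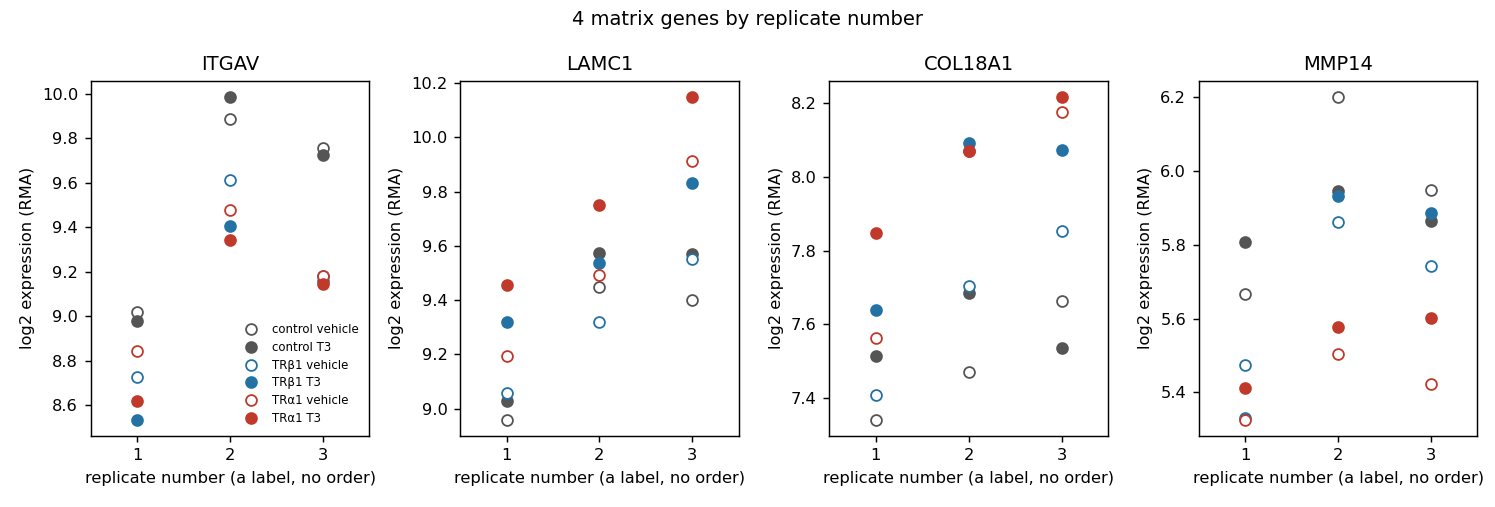
Log2 expression of ITGAV, LAMC1, COL18A1 and MMP14 by replicate number, with pools in colour, open symbols for vehicle and filled symbols for T3. In every group the array numbered 1 is the lowest of its 3 for all 4 genes, and ITGAV runs from 8.53 to 9.02 there and from 9.34 to 9.99 in arrays numbered 2.

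Values shifted with the replicate number, in these genes and in others. Arrays numbered 1 were lower than those numbered 2 and 3 for 34 of 41 genes, a larger share than the 68.2% of all features. The shift ranged from -0.70 in ITGAV to 0.24 in SPARC, and 5 of 41 (12.2%) shifted by over 0.5, against 11.1% of all features.

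**Figure D3:**
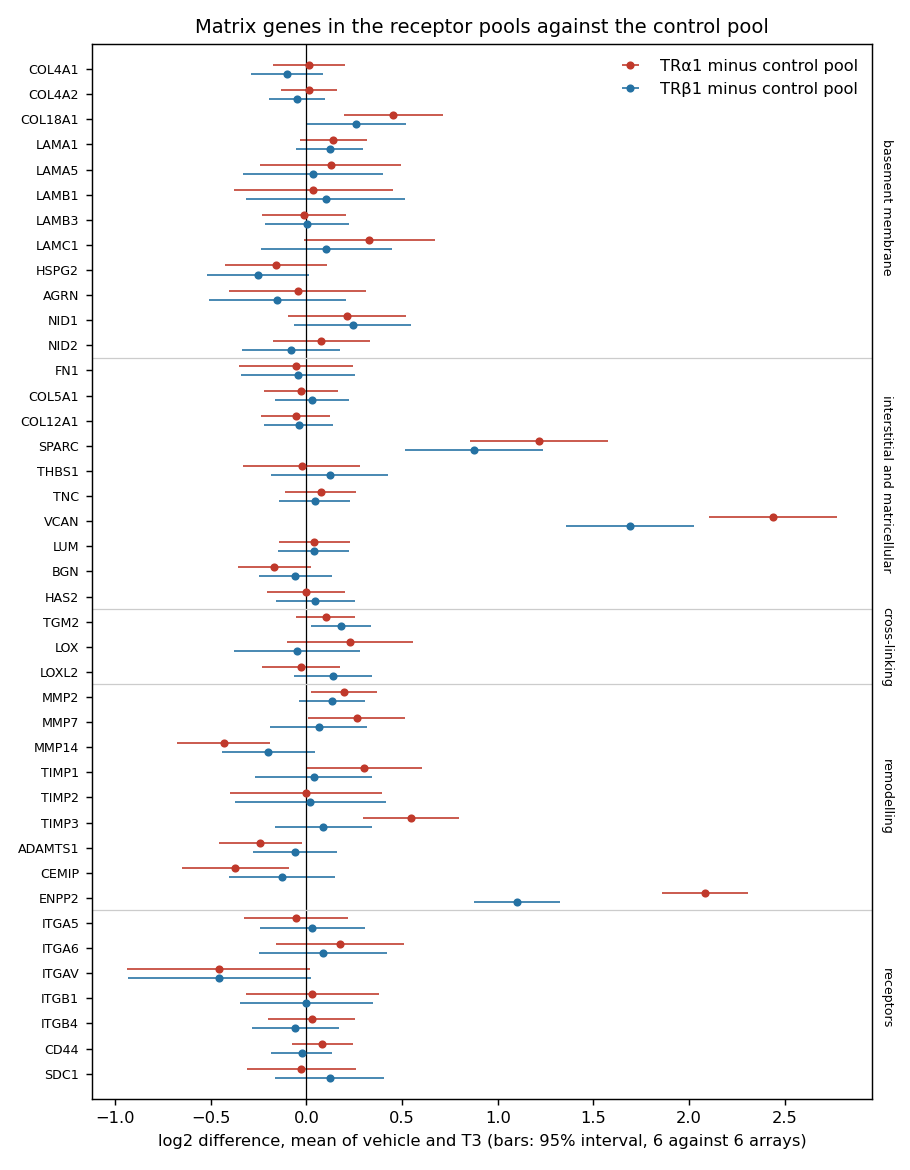
Log2 difference from control of each of 41 matrix genes in the TRα1 and TRβ1 pools, with 95% intervals over 6 against 6 arrays. VCAN, ENPP2 and SPARC stand apart to the right, up to 2.44, and the remaining genes lie between -0.46 and 0.55.

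T3 changed few of these genes within 6 h. Averaged over the 3 pools, CEMIP fell and ENPP2 rose, so 2 of 41 passed (4.88%), against 0.423% of all features. With the block TIMP3 rose as well and 3 passed, against 1.69%. The choice of genes with earlier results known limits these shares too. The median difference was 0.00, against -0.01 for all features. The difference had the same sign in all 9 same-numbered pairs for 7 genes (3.84% of all features), which were CEMIP, ENPP2, TIMP3, TIMP2 (0.26), LAMC1 (0.21), LAMB1 (-0.15) and SPARC (-0.12). The last 4 did not pass in either fit.

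CEMIP read 7.40, 7.52 and 7.50 on vehicle and 6.52, 6.99 and 6.68 on T3 in TRα1. It read 7.58, 7.88 and 7.81 on vehicle and 6.70, 7.07 and 7.03 on T3 in TRβ1. In control it read 7.26, 7.91 and 7.77 on vehicle and 6.93, 7.51 and 7.46 on T3. T3 arrays lay below all vehicle arrays of their pool in both receptor pools, and the ranges overlapped in control. Averaged over pools CEMIP fell by 0.64 on the log2 scale (difference -0.64 ± 0.11, 1.55-fold, adjusted p = 0.0088), and this call held without any 1 of the 18 arrays. The response was -0.74 in TRα1 and -0.82 in TRβ1, each of which passed with the block only (adjusted p = 0.32 and 0.24, with the block 0.00097 and 0.00057), and -0.34 in control, which did not (with the block adjusted p = 0.46).

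ENPP2 rose by 0.45 ± 0.09 averaged over pools (1.37-fold, adjusted p = 0.026, with the block 0.00019), higher in 9 of 9 pairs. The response was 0.69 in TRα1 (adjusted p = 0.14, with the block 0.0015), 0.45 in TRβ1 (with the block 0.056) and 0.20 in control (with the block 0.83). The averaged call was lost without any 1 of 10 of the 18 arrays (adjusted p up to 0.071; vehicle arrays 1 and 2 of each pool, all 3 TRβ1 arrays on T3 and TRα1 array 3 on T3) and held with the block in all 18. TIMP3 rose by 0.39 averaged over pools with the block only (adjusted p = 0.15, with the block 0.00069), higher in 9 of 9 pairs, and its second feature by 0.52 (with the block adjusted p = 0.023). The first feature's response was 0.55 in TRα1 (with the block adjusted p = 0.0082), 0.36 in TRβ1 (0.18) and 0.25 in control (0.77). The TRα1 call was lost without any 1 of 3 TRα1 arrays, the vehicle arrays numbered 1 and 3 and the T3 array numbered 2.

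**Figure D4:**
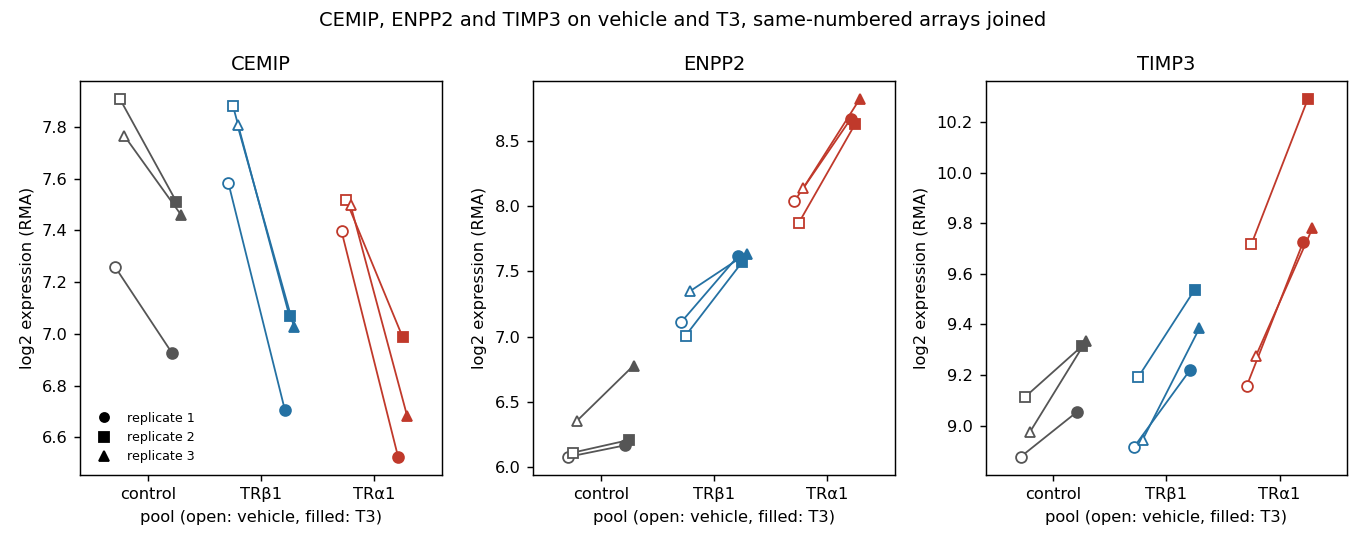
Log2 expression of CEMIP, ENPP2 and TIMP3 on vehicle (open) and T3 (filled) in each pool, with same-numbered arrays joined by lines. CEMIP runs down and ENPP2 and TIMP3 run up in all 9 pairs.

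Within single pools, limma without the block called 0 of 41 genes on T3 in each of TRα1, TRβ1 and control (4, 3 and 0 at an unadjusted p under 0.05). It called 0.131%, 0.073% and 0.00973% of all features, of which 2.55%, 2.22% and 2.03% had such an unadjusted p. With the block it called 3 in TRα1 (CEMIP, ENPP2 and TIMP3), CEMIP in TRβ1 and 0 in control, against 0.667%, 0.477% and 0.0973%. In that fit 6, 9 and 2 genes had an unadjusted p under 0.05, and the share of all features with such a p was not counted. T3 and vehicle arrays did not overlap for 4 genes in TRα1 (these 3 and COL4A2, -0.27), for the same 3 in TRβ1 and for 0 in control, against 5.26%, 5.04% and 6.16% of all features.

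No test showed that a T3 response differed between pools. Of 41 genes, 0 passed in each of the 3 differences between responses, as did 0% of all features. At an unadjusted p under 0.05 there were 1, 0 and 0 genes for the TRα1 response minus the control response, TRβ1 minus control and TRβ1 minus TRα1, against 1.39%, 1.34% and 1.09% of all features. With the block 0 of 41 passed again, against 0.0292%, 0% and 0% of all features. In that fit 3, 2 and 1 genes had an unadjusted p under 0.05. The share of all features with such a p was not counted there, so these counts cannot be set against it. The intervals were wide. For CEMIP the response in TRα1 minus that in control was -0.39 (95% interval -0.95 to 0.16), and in TRβ1 minus control -0.48 (-1.04 to 0.08). For ENPP2 these were 0.49 (0.04 to 0.94) and 0.25 (-0.20 to 0.70), and for TIMP3 the first was 0.30 (-0.20 to 0.81). VCAN and SPARC, which differed most between pools beside ENPP2, changed on T3 by -0.20 and -0.12, and neither passed.

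**Figure D5:**
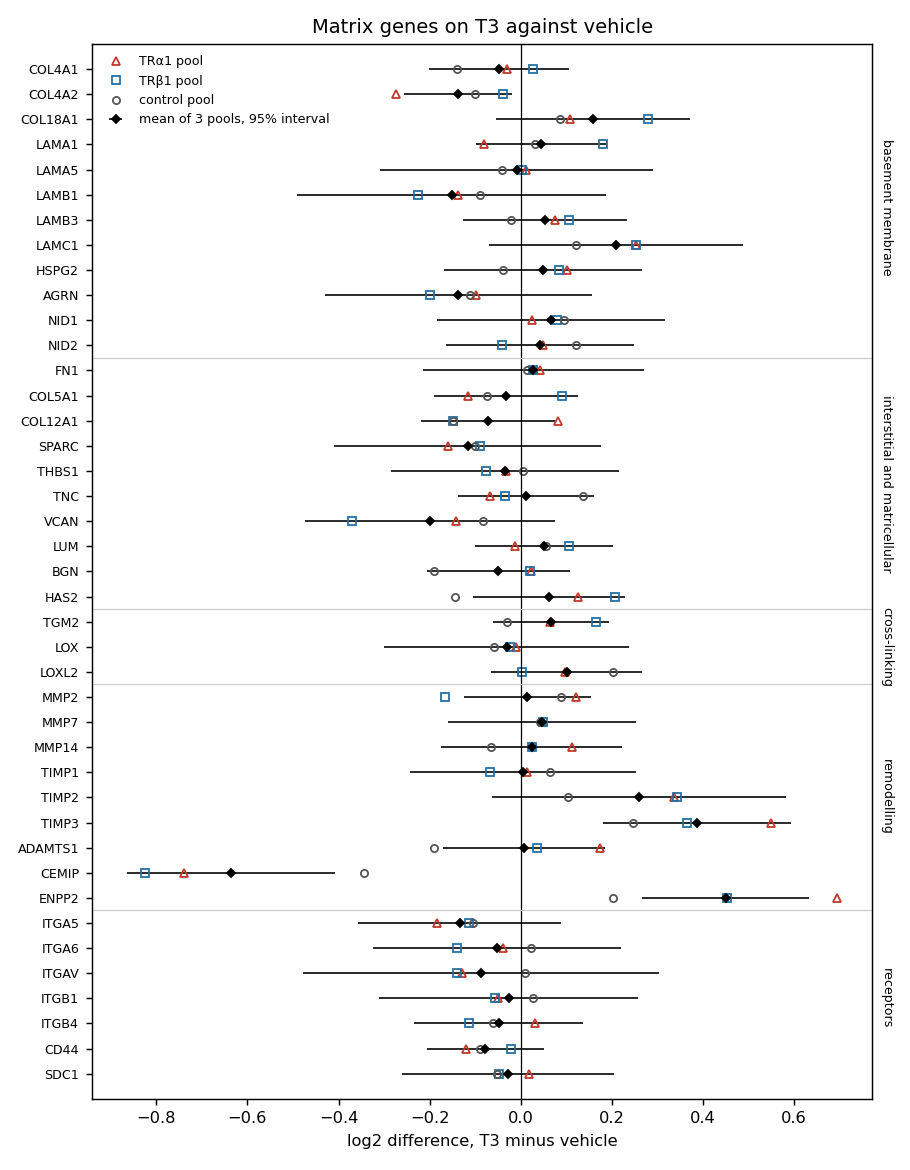
Log2 difference of T3 minus vehicle for each of 41 matrix genes in the 3 pools (open symbols), with the mean of the pools and its 95% interval as diamonds and bars. CEMIP lies lowest, at -0.74 in TRα1 and -0.82 in TRβ1, ENPP2 lies highest at 0.69 in TRα1, and most genes lie near 0 in every pool.

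CEMIP and TIMP3, which moved in opposite directions on T3, are shown by the same 250 bases before the start, chr15:80779120-80779369 for CEMIP and chr22:32801455-32801704 for TIMP3, both on the plus strand of GRCh38.p14 and from RefSeq. Capitals mark motif matches.
CEMIP: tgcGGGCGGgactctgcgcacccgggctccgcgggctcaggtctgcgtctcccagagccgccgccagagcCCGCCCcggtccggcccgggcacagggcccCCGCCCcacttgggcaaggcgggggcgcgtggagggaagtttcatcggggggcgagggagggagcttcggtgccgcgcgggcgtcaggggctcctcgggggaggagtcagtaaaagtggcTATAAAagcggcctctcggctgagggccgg
TIMP3: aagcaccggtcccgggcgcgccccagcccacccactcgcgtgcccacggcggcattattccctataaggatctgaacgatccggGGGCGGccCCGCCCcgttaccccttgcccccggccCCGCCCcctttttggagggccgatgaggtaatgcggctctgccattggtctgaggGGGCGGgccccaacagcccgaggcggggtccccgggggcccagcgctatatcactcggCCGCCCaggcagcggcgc
CEMIP held 4 matches, of which 1 was the TATA motif, 30 to 25 bases before the start. The other matches in CEMIP, and all 5 in TIMP3, were to GGGCGG on either strand. Neither window held the nuclear receptor core. The TATA motif stood in windows of 5 of the 30 genes and in 10.7% of all windows. The content of G or C bases was 74.4% in the CEMIP window and 72.4% in the TIMP3 window, against 60.8% for VCAN, 59.2% for SPARC and a median of 58.0% over all windows.

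A wider list of other collagens, glycoproteins, proteases, integrins and adhesion adaptors had 188 of 197 genes measured. In TRα1 against control 6 passed (3.19%, against 1.38% of all features), 5 higher and 1 lower, with NPNT (nephronectin, an integrin ligand) higher by 1.16 and GPC3 (glypican-3, a cell surface proteoglycan) lower at -0.61. Adding the block raised this to 29 genes (15.4%, against 7.54%), of which 23 were higher and 6 lower. They included MMP3 (0.97) and the bone and tumour matrix protein SPP1 (0.87) higher and the integrin chain ITGA2 lower (-0.62). In TRβ1, ITGB2 (0.51) was higher and GPC3 (-0.58) lower (1.06%, against 0.38% of all features), and with the block 6 were higher and 3 lower (4.79%, against 3.61%). On T3 averaged over pools, the focal adhesion adaptor TNS4 (1.06, adjusted p = 0.00022) and the metalloproteinase MMP11 (0.56, adjusted p = 0.016) rose (1.06%, against 0.423% of all features), and with the block 8 rose and 0 fell (4.26%, against 1.69%). The medians of the 188 were 0.03 in TRα1, 0.01 in TRβ1 and -0.02 on T3. This list too was chosen with earlier results known, so its shares carry the same limit.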

How the data were processed

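Single-colour Affymetrix Human Gene ST arrays measured total RNA of 18 samples. The deposited values are log2 expression per feature, which the authors made with RMA (a background correction, a quantile normalization and a summary by median polish). The submitters' processing notes name R 2.7.1 for it. Values ran from 0.894 to 13.7, array medians from 5.31 to 5.49. RMA shrinks differences of dim features. Of all features 19158 had 1 gene, 1388 several and 11775 none here. The files' genome build is not given in the sources used here, so only RefSeq windows carry coordinates.

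A linear model of 6 groups was fitted to 20546 features with limma 3.58.1 in R 4.3.3, with two-sided p-values adjusted by the Benjamini-Hochberg method within each of 13 contrasts and a threshold of 0.05. Pool differences average vehicle and T3. Adding the replicate number as a block was the main alternative. All 45 pairs of arrays sharing a number but not a group correlated after group means were removed (lowest 0.183, median 0.498). Pairs of other numbers had a median of -0.382 and a highest value of 0.330. Deviations in a group sum to 0, so this negative median follows from the first and is no separate support. Each of the 18 arrays correlated best with an array of its own number in another group, so the numbers were taken to pair the arrays. The labels used here do not say whether replicates were separate cultures. Named genes are the 41 members, with every array's value for those called without the block. Of genes called with the block only, array values are given for ITGAV and, in TRα1 and control, for MMP14. The members and the lists were chosen with earlier results of these data known. Other alternatives were array weights, a variance trend, centring, repeated quantile normalization, all features, brighter features, the compared arrays only, and leaving out each array. The number of arrays limits the precision.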

Additional observations from a re-analysis of the deposited data

How the results depend on the processing

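No difference of a called gene reversed under any alternative. With the replicate number as a block, which pairs the arrays, the estimates were the same and the median standard error of a pool difference fell to 0.0755 from 0.111. The counts of genes called then became 10 in TRα1 against control, 6 in TRβ1 against control, 4 between the receptor pools, 7, 3 and 1 for the same comparisons on vehicle, and 3, 1 and 0 on T3 in TRα1, TRβ1 and control. With the block on arrays numbered 2 and 3 only, an alternative chosen after seeing the data, they were 8, 5 and 4 for the pools, 5 for TRα1 on vehicle, and 1 and 1 on T3 in TRα1 and TRβ1. Without the block those arrays gave 1 for T3 averaged over pools, where ENPP2 was lost (adjusted p = 0.18), and 1 for TRβ1 on vehicle. Array weights gave 7 in TRα1 and 2 between the receptor pools, and centring or repeated quantile normalization also gave 2 there. Fitting only the compared arrays left 0 for TRβ1 on vehicle, where VCAN and ENPP2 were lost. Leaving out each array gave 3 to 5 in TRα1, 2 to 3 in TRβ1 and 1 to 2 between the receptor pools, 2 to 3, 1 to 2 and 0 to 1 for these on vehicle, 1 to 2 for T3 averaged, 0 to 1 for T3 in TRα1, and 0 for T3 in TRβ1 and control and for the differences between responses. With the block these ranges were 9 to 11, 4 to 6, 3 to 5, 3 to 7, 2 to 4, 1 to 1, 3 to 4 and 2 to 3, then 1 to 2 for T3 in TRβ1 and 0 for the rest. The calls of COL18A1 and HSPG2 in TRβ1 with the block held without 1 array in 2 and 11 of 18 cases, and that of LOX in TRα1 in 12. SPARC in TRβ1 did not pass after centring (adjusted p = 0.061) or over all features (0.056), and TIMP3 in TRα1 did not over all features (0.053). The cause of these changes was not tested. Shares of all features were counted only for the main fit and for the block on all 18 arrays. Counts under the other alternatives therefore cannot be set against the calls of all features. Centring and quantile normalization moved the median of all features by at most 0.028. With 3 arrays a group, small differences of the other genes, such as those within the intervals given, could not be seen.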
